A study of Vernicia fordii and Jatropha curcas with 4 samples.

Results

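The enzymes described here are the dehydrogenases of the oxidative pentose phosphate pathway, with plastid transketolase beside them, in developing seeds of 2 oil trees, the physic nut Jatropha curcas and the tung tree Vernicia fordii. They were chosen by 10 Arabidopsis locus codes: those of glucose-6-phosphate dehydrogenases (G6PDH) 1 to 6, of 6-phosphogluconate dehydrogenases (6PGDH) 1 to 3 and of plastid transketolase. Contigs that carried one of these codes numbered 12 among 45411 in Jatropha and 9 among 49582 in Vernicia, so 21 of 94993 in all. They covered 6 of the 10 loci in Jatropha and 7 in Vernicia, and the same 6 loci were covered in both species. The names G6PDH, 6PGDH and transketolase come with the list of codes. The deposited tables hold the codes alone, so each contig is a match to an Arabidopsis locus and not an identified gene of either tree.

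The study sequenced polyadenylated RNA of 4 libraries, 2 per species, each from the mixed RNA of 3 seeds. The trees were 3 years old and were sampled at an early and at a fast stage of oil accumulation, which fell on days 29 and 37 after pollination for Jatropha and on days 90 and 135 for Vernicia. The labels give endosperm as the source and seeds of pollinated female flowers as the tissue. The value columns are numbered 7 and 8, and the sources used here do not say which number is which stage, so the libraries are called by number and no difference has a direction in time. With 1 library per stage there is no replicate, no error and no test, and differences are described by their size. As whole pooled tissue was sequenced, fewer cells of a type and less RNA per cell cannot be told apart.

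The pathway starts from glucose 6-phosphate. G6PDH takes the first step and sets the rate of entry, a lactonase opens its product, and 6PGDH then releases carbon dioxide and leaves ribulose 5-phosphate. Both dehydrogenases make NADPH, the reductant that plastids spend on fatty acid synthesis in oil seeds. Transketolase belongs to the non-oxidative branch, which returns pentose phosphates to hexose and triose phosphates and shares that enzyme with carbon fixation. In Arabidopsis, G6PDH 1, 2 and 3 are active plastid enzymes, G6PDH 4 is a plastid form without activity of its own, and G6PDH 5 and 6 are cytosolic. Arabidopsis 6PGDH 2 is found in the cytosol and peroxisomes, whereas 6PGDH 1 and 3 are found in plastids and the cytosol. Where the proteins of the 2 trees reside was not measured.

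Levels are given in RPKM, which scales the reads of a contig by its length and by the size of the library, summed over the contigs of a locus. All contigs of libraries 7 and 8 summed to 1104588 and 817400 RPKM for Jatropha and to 676071 and 751745 RPKM for Vernicia, and the read numbers behind single values are unknown. A list of 8 storage globulin and oleosin loci, markers of maturing seed, made up 0.133% of Jatropha library 7 and 18.9% of Jatropha library 8, against 0.0717% and 10.7% for Vernicia. For each species 6 of these 8 loci had a contig and none was at 0. In Jatropha 3 of the 6 were 2-fold higher in library 8, against 7.15% of all loci. AT1G03880, with 17.96 and 11.51 RPKM, and AT3G01570, with 6.39 and 3.67 RPKM, lay lower there. AT5G44120 alone held 133634 of the 154884 RPKM of the list in Jatropha library 8. In Vernicia 5 of the 6 were 2-fold higher, against 7.70% of all loci, and none lay lower. A list of 6 loci of light harvesting and Rubisco small subunits, markers of green tissue, summed to 26.5 and 110.0 RPKM in Jatropha, where 2 loci had a contig and 1 of them, AT5G38410, was listed at 0 in library 8. In Vernicia that list summed to 72.7 and 196.8 RPKM, with 4 loci present and 2, AT1G29930 and AT2G34420, listed at 0 in library 7. A single locus, AT1G67090, held most of these sums, with 23.74 and 109.97 RPKM in Jatropha and 72.40 and 192.14 RPKM in Vernicia. The 4 flavonoid loci used as seed coat markers summed to 70.0 and 72.0 RPKM in Jatropha and to 57.5 and 64.3 in Vernicia, with none at 0. These near-equal sums hide unlike loci. In each species 3 of the 4 lay lower in library 8, as did most loci of both tables. By 2-fold 2 of the 4 were lower, against 46.9% of all loci in Jatropha and 18.8% in Vernicia. In Jatropha AT1G61720 had 18.38 and 3.52 RPKM while AT5G13930 had 40.41 and 65.52, and in Vernicia AT1G61720 had 27.86 and 53.75 RPKM while AT5G13930 had 13.81 and 4.64. The part of these shifts in the differences below was not tested. Markers that would separate endosperm from embryo were not on the lists, so the labelled tissue was not checked at that level.

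Among the first enzymes, 4 of the 6 G6PDH loci were covered in each species, and no contig of either table used here carried the codes of G6PDH 3 (AT1G24280) or G6PDH 5 (AT3G27300). A missing code says which codes the contigs received and not that the seed lacked the transcript. With contigs assigned as deposited, G6PDH 1 (AT5G35790) was the lowest member in all 4 libraries. Jatropha libraries 7 and 8 held 4.95 and 0.91 RPKM of it, Vernicia libraries 7 and 8 held 4.52 and 3.02 RPKM. Its Jatropha level was thus higher in library 7, by 5.44-fold, while the Vernicia levels were within 1.5-fold of each other. The Jatropha sum was spread over 3 contigs, comp13053_c0 with 2.19 and 0.56 RPKM, comp23922_c0 with 1.69 and 0.24 RPKM and comp5780_c0 with 1.07 and 0.11 RPKM. All 3 lay lower in library 8, at low levels whose counting error is unknown.

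G6PDH 2 (AT5G13110), the other active plastid form covered, was more abundant. Its Jatropha level was 19.5 RPKM in library 7 and 15.0 in library 8, and its Vernicia level was 24.56 and 15.65 RPKM. In Jatropha contig comp16728_c0 held most of it and hardly differed, with 15.47 and 14.09 RPKM. The second Jatropha contig, comp23922_c1, had 4.03 and 0.91 RPKM. Its name shares the prefix comp23922 with a contig that carried the code of G6PDH 1, so the division between the plastid forms 1 and 2 is uncertain there. With both comp23922 contigs given to G6PDH 2, the log2 difference of G6PDH 1 was -1.35, and with both given to G6PDH 1 it was -1.82, against -1.64 as deposited. G6PDH 4 (AT1G09420) was a single contig in each species, with 8.74 and 5.43 RPKM in Jatropha and 25.69 and 20.45 RPKM in Vernicia. In both species it was somewhat lower in library 8.

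The cytosolic form, G6PDH 6 (AT5G40760), was also a single contig in each species. Its Jatropha levels were nearly equal, at 12.89 RPKM in library 7 against 13.58 in library 8. Its Vernicia levels were 34.98 and 22.34 RPKM, 1.57-fold higher in library 7. Summed over the 4 loci, G6PDH had 46.1 and 34.9 RPKM in Jatropha and 89.8 and 61.5 RPKM in Vernicia. Within a library, shares of such a sum do not depend on how libraries are scaled. G6PDH 6 held 28.0% of it in Jatropha library 7 against 38.9% in library 8, a gap of 10.9 percentage points, while G6PDH 1 held 10.7% and 2.61%. With only the highest contig of each locus, G6PDH 6 held 32.8% and 40.3% there, a smaller gap. G6PDH 2 held 42.3% and 43.0% as deposited, and G6PDH 4 held 19.0% and 15.5%. With the comp23922 contigs given to G6PDH 1, the shares of G6PDH 2 were 33.6% and 40.3% and those of G6PDH 1 were 19.5% and 5.21%. G6PDH 1 then stood above G6PDH 4 in library 7 and below it in library 8. With the comp23922 contigs given to G6PDH 2, its shares were 46.0% and 43.6% and those of G6PDH 1 were 7.07% and 1.92%. In Vernicia each share differed by at most 4.7 percentage points between the libraries, with 39.0% and 36.3% for G6PDH 6, 27.4% and 25.5% for G6PDH 2, 28.6% and 33.3% for G6PDH 4 and 5.04% and 4.91% for G6PDH 1. The ratio of the cytosolic form to the sum of plastid forms 1 and 2 was 0.527 in Jatropha library 7, 0.854 in Jatropha library 8 and 1.20 in both Vernicia libraries.

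**Figure D1:**
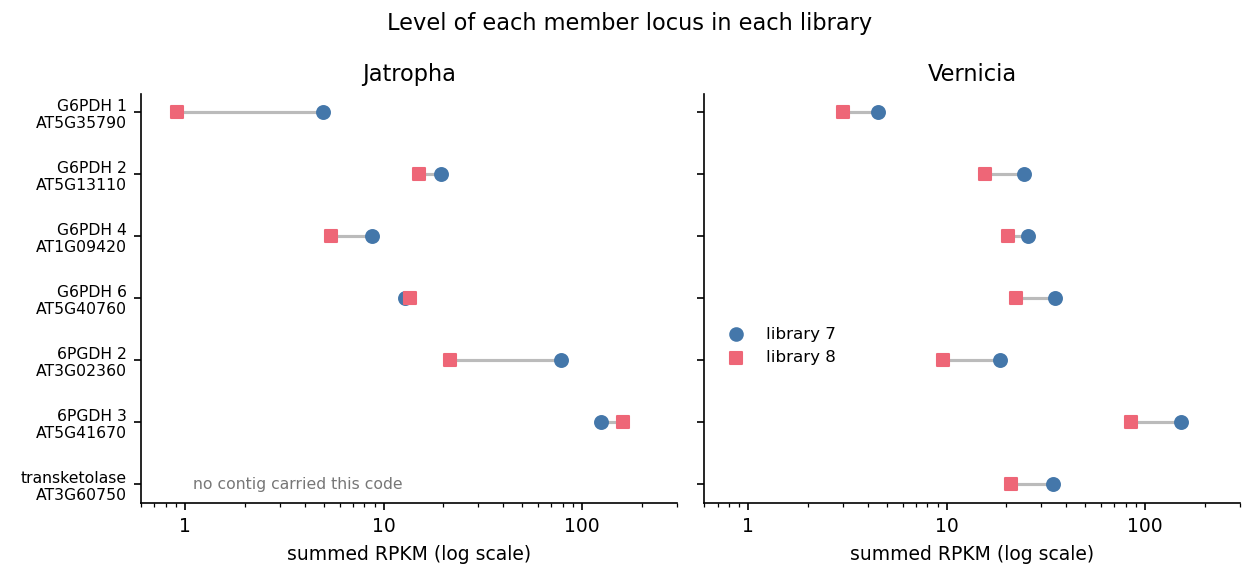
Summed RPKM (log axis) of each member locus in library 7 (circles) and library 8 (squares) of Jatropha and Vernicia, 1 library each, without error bars as there are no replicates. 6PGDH 3 is the highest member in all 4 libraries, from 85.2 to 161.3 RPKM, and G6PDH 1 the lowest, from 0.91 to 4.95 RPKM.

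The second dehydrogenase of the pathway, 6PGDH, had the higher summed level, although with the highest contig of each locus in place of the sum this order turned in Vernicia library 8. No contig carried the code of 6PGDH 1 (AT1G64190), which again does not say that the seed lacked the transcript. As deposited, 6PGDH 3 (AT5G41670), a plastid and cytosol form in Arabidopsis, had the highest level of all members in all 4 libraries. In Vernicia this rests on component comp25402, whose contigs carried the codes of 6PGDH 2 and 6PGDH 3. With both contigs given to 6PGDH 2, that form held 53.9% and 50.2% of summed 6PGDH, against 46.1% and 49.8% for 6PGDH 3. In Jatropha 6PGDH 3 was the single contig comp28307_c0, with 124.38 RPKM in library 7 against 161.33 in library 8. For Vernicia these levels were 151.41 and 85.22 RPKM, the sum of contig comp25402_c0 with 73.16 and 38.04 RPKM and contig comp28293_c0 with 78.25 and 47.18 RPKM. Library 8 thus held the higher level in Jatropha, 1.30-fold, and the lower one in Vernicia, where library 7 was 1.78-fold higher and both contigs lay in the same direction.

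6PGDH 2 (AT3G02360), the form of the cytosol and peroxisomes in Arabidopsis, was with G6PDH 1 one of the members that differed most between the Jatropha libraries. Which of them came first depended on the setting: 6PGDH 2 did with the pseudocount of 1 RPKM as deposited, at -1.80 against -1.64 in log2, and G6PDH 1 did with a pseudocount of 0.1 RPKM, at -2.32 against -1.85, and after median-ratio scaling, at -1.18 against -1.0. Library 7 held 78.3 RPKM of it against 21.71 in library 8, a 3.61-fold difference. Contig comp16049_c0 had 53.71 and 10.18 RPKM and its neighbour comp16049_c1 had 17.92 and 7.08 RPKM, so these contigs together held 71.6 RPKM in library 7 against 17.3 in library 8. The contigs of the other component were much lower and differed less, with 6.17 and 3.40 RPKM for comp24992_c0 and 0.50 and 1.05 RPKM for comp24992_c2. In Vernicia 6PGDH 2 was 1 contig, comp25402_c1, with 18.51 and 9.53 RPKM, a 1.94-fold difference. Where contigs are pieces of 1 transcript, a sum over them counts that transcript more than once.

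The makeup of 6PGDH differed between the Jatropha libraries. 6PGDH 3 held 61.4% of the summed 6PGDH level in library 7 against 88.1% in library 8, and it exceeded 6PGDH 2 by 1.59-fold and 7.43-fold. With only the highest contig of each locus these shares were 69.8% and 94.1%. In Vernicia 6PGDH 3 held 89.1% and 89.9%, exceeding 6PGDH 2 by 8.18-fold and 8.94-fold. The Vernicia division rests on component comp25402, whose contigs carried the codes of both forms. Given to 6PGDH 2 as a whole, it left 6PGDH 3 with 46.1% and 49.8%, and given to 6PGDH 3 it left 100% in both libraries. Under each of these assignments the Vernicia libraries differed by less than 4 percentage points, against 26.7 in Jatropha as deposited. Whether such a gap exceeds the variation between seeds could not be tested.

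**Figure D2:**
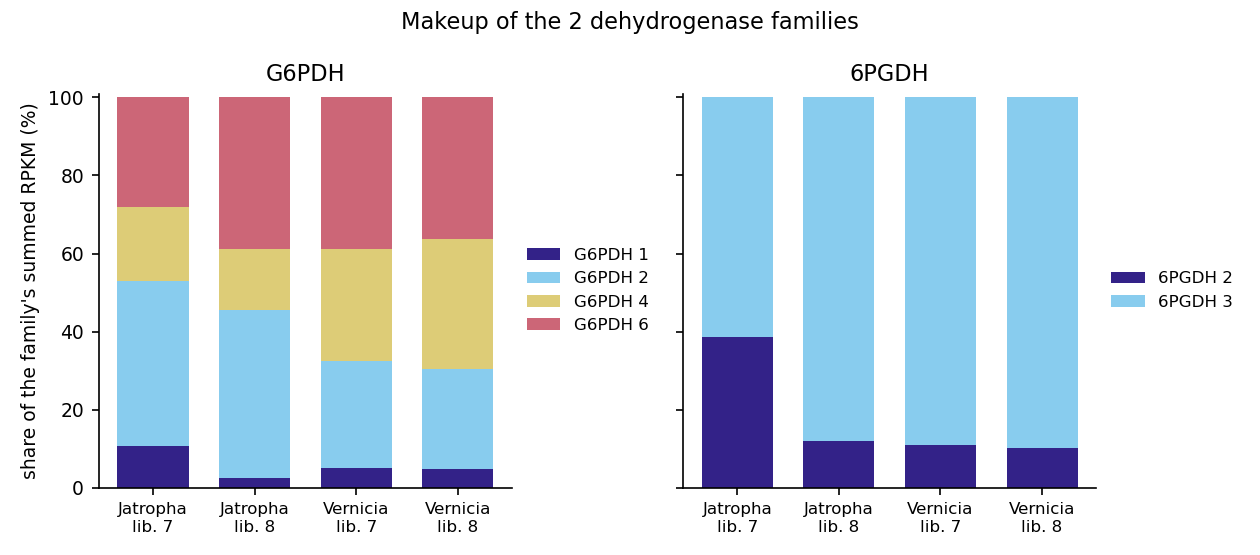
Share (%) of each locus in the summed RPKM of its family, in each of the 4 libraries (lib. 7 and lib. 8 of each species), for G6PDH and for 6PGDH. With contigs assigned as deposited, 6PGDH 2 takes 38.6% of the 6PGDH bar in Jatropha library 7 and between 10.1% and 11.9% in the other libraries.

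Summed 6PGDH was 202.7 and 183.0 RPKM in Jatropha and 169.9 and 94.8 RPKM in Vernicia. The ratio of summed 6PGDH to summed G6PDH was 4.40 in library 7 and 5.24 in library 8 of Jatropha, against 1.89 and 1.54 for Vernicia. By these sums 6PGDH was above G6PDH in all 4 libraries, and by more in those of Jatropha. With the highest contig of each locus the ratios were 4.53 and 5.10 in Jatropha but 1.08 and 0.923 in Vernicia, so that in Vernicia library 8 the order turned. The tables were normalized separately, so levels in RPKM are not compared between species. Set side by side are ratios and shares within a library, percentiles, and differences between the 2 libraries of a species. With contigs assigned as deposited, the order of the members was the same in both libraries of a species. In Jatropha it ran from 6PGDH 3 through 6PGDH 2, G6PDH 2, G6PDH 6 and G6PDH 4 to G6PDH 1, and in Vernicia from 6PGDH 3 through G6PDH 6, transketolase, G6PDH 4, G6PDH 2 and 6PGDH 2 to G6PDH 1. With the highest contig in place of the sum, 6PGDH 2 stood below G6PDH 2 and G6PDH 6 in Jatropha library 8. In Vernicia transketolase, at 25.43 and 16.35 RPKM, then stood below G6PDH 4, at 25.69 and 20.45 RPKM, in both libraries. With comp25402 given to 6PGDH 2, that form stood first in both Vernicia libraries. With comp23922 given to G6PDH 1, the Jatropha order was not the same in both libraries. G6PDH 1 then stood above G6PDH 4 in library 7, at 19.5% against 19.0% of summed G6PDH. In library 8 G6PDH 1 stood below G6PDH 4, at 5.21% against 15.5%. As no library was replicated, no neighbours in these orders can be said to differ.

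Plastid transketolase (AT3G60750), the member of the non-oxidative branch, was covered in Vernicia only, by contigs comp16521_c0 with 8.80 and 4.77 RPKM and comp16521_c2 with 25.43 and 16.35 RPKM. Their sum was 34.23 RPKM in library 7 against 21.12 in library 8, 1.62-fold higher in library 7. The contig comp16521_c1 of the same component carried another code, AT2G45290, and had nearly equal levels of 82.91 and 84.21 RPKM. The other Vernicia contig of that code, comp27247_c0, had 134.71 and 37.04 RPKM. In Jatropha AT2G45290 was carried by comp15886_c0, with 41.20 and 22.74 RPKM. The absence of AT3G60750 in Jatropha therefore says which code a contig received and not that the seed lacked the transcript. In Vernicia summed G6PDH exceeded AT3G60750 by 2.62-fold and 2.91-fold, and summed 6PGDH exceeded it by 4.96-fold and 4.49-fold. These ratios hold for that code alone. AT2G45290, with a contig in the same component, summed to 217.62 and 121.25 RPKM in Vernicia, above 6PGDH at 169.9 and 94.8 RPKM.

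The difference between libraries was taken as log2((library 8 + 1)/(library 7 + 1)) of the RPKM values, a scale that understates the difference of low loci, for loci with at least 1 RPKM in either library. All 6 Jatropha loci and all 7 Vernicia loci covered met that limit. Most loci of both tables lay lower in library 8: among loci that reached 1 RPKM in both libraries, the median difference was -0.86 in Jatropha and -0.48 in Vernicia, with quartiles of -1.49 and -0.20 for Jatropha and of -0.84 and -0.03 for Vernicia. The values of the members are best read against these medians. In Vernicia all members but 6PGDH 2, at -0.89, lay between these quartiles. The others were 6PGDH 3 at -0.82, transketolase at -0.67, G6PDH 2 and 6 at -0.62, G6PDH 1 at -0.46 and G6PDH 4 at -0.32. All 7 were below 0, as was even the upper quartile of Vernicia loci, and 5 of the 7 were below the Vernicia median. In Jatropha the members spread further, as did the loci behind these quartiles. The lowest were 6PGDH 2 at -1.80 and G6PDH 1 at -1.64, then G6PDH 4 at -0.60 and G6PDH 2 at -0.36. The highest were G6PDH 6 at 0.07 and 6PGDH 3 at 0.37. Relative to the Jatropha median, 6PGDH 2 was at -0.94, G6PDH 1 at -0.78, G6PDH 6 at 0.93 and 6PGDH 3 at 1.23.

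**Figure D3:**
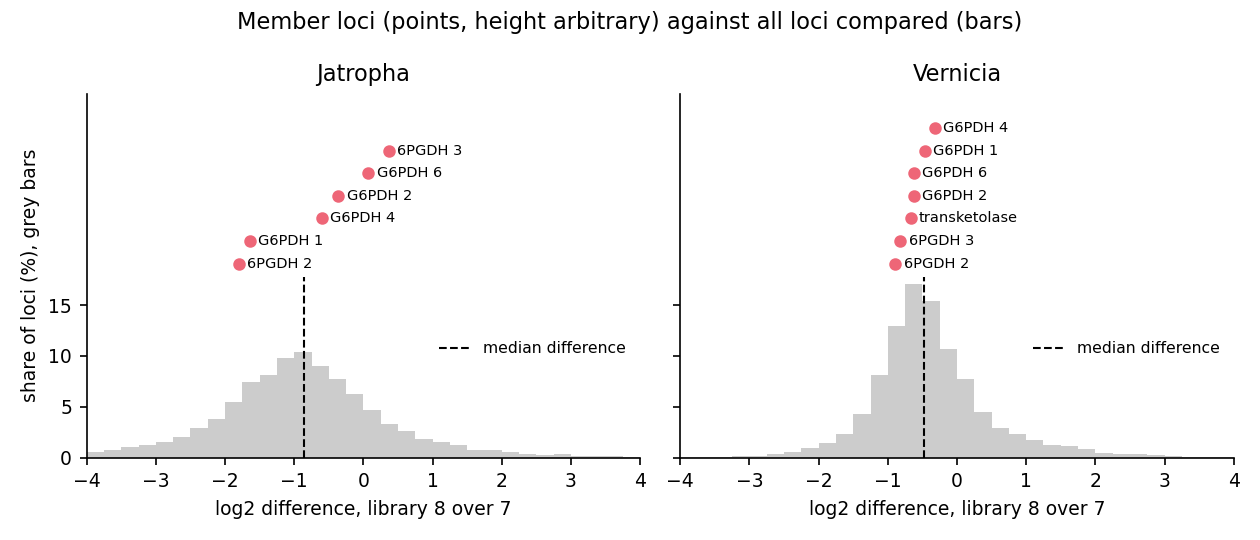
Log2 differences, library 8 over 7, of the member loci (points, at arbitrary heights) above the distribution of all loci compared (grey bars, % of loci per 0.25 log2 units, loci beyond 4 units not drawn). The dashed line is the median of loci with at least 1 RPKM in both libraries, -0.86 in Jatropha and -0.48 in Vernicia. The Vernicia members stand within 0.57 log2 units of one another and the Jatropha members within 2.18.

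Counts of members past 2-fold are small and are given beside the share of all loci or contigs past the same limit. In Jatropha 2 of 6 member loci, 6PGDH 2 and G6PDH 1, were at least 2-fold lower in library 8, as were 46.9% of the 12931 loci compared, and none was 2-fold higher, against 7.15% of all loci. By contig 5 of 12 were lower, against 37.0% of contigs, and none was higher, against 17.0%. In Vernicia none of the 7 loci was 2-fold lower or higher, against 18.8% and 7.70% of 12896 loci, and none of the 9 contigs, against 16.8% and 9.77% of contigs. Median-ratio scaling divides library 8 by its typical ratio to library 7, which was 0.563 in Jatropha and 0.757 in Vernicia. After it 6PGDH 3 stood 2-fold higher in Jatropha library 8, at a log2 difference of 1.20 where 15.1% of loci were higher. 6PGDH 2 and G6PDH 1 stayed 2-fold lower, at -1.0 and -1.18, where 24.0% of loci were lower. In Vernicia none of the 7 loci was called after this scaling, against 11.2% of loci higher and 9.34% lower. The directions of G6PDH 2 and G6PDH 4 in Jatropha turned under it, to 0.43 and 0.13, as did that of G6PDH 4 in Vernicia, to 0.07.

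The standing of a locus among all loci of its library is independent of scaling. 6PGDH 3 lay at percentiles 94.3 and 97.6 of 13319 loci in libraries 7 and 8 of Jatropha, and at 95.8 and 93.1 of 13333 loci in those of Vernicia. G6PDH 6 stood at percentile 51.2 in Jatropha library 7 and at 72.6 in library 8, while in Vernicia it stood at 77.6 and 73.7. G6PDH 2 was at 63.8 and 74.8 in Jatropha and at 69.3 and 64.9 in Vernicia. 6PGDH 2 had the opposite order in Jatropha, with 91.0 and 82.1, and was at 61.3 and 51.6 in Vernicia. G6PDH 1 was at 24.9 and 13.4 in Jatropha and at 23.6 and 22.1 in Vernicia, and G6PDH 4 at 39.8 and 48.0 in Jatropha and at 70.4 and 71.7 in Vernicia. Among 11415 loci present in both tables, the 2 with the 4 percentiles nearest to those of 6PGDH 3 were AT4G30600, at a Euclidean distance of 1.54 percentile units, and ATCG01130, at 1.80. This likeness is over 4 libraries only.

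The remaining steps and other NADPH sources were described by 4 lists of locus codes with 26 loci in all, of which 20 had a contig in each species. In Jatropha 3 of 20 passed 2-fold upward in library 8 and 4 downward, where 7.15% and 46.9% of all loci compared did so, with a median difference of -0.50. In Vernicia, where 19 reached 1 RPKM, none was higher and 3 were lower, against 7.70% and 18.8% of all loci, with a median of -0.58. Relative to the medians of loci with at least 1 RPKM in both libraries, these medians were 0.37 and -0.10. Below, each list's median relative to that median follows its own, and the shares of all loci past 2-fold are those just given.

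The lactonase list, for the step between the dehydrogenases, had 2 of 5 loci covered in each species. The highest locus of a list is the one with the largest sum over both libraries of a species. AT5G24400, the highest in Jatropha, was at 64.44 RPKM there in library 7 against 148.63 in library 8, a difference of 1.19 in log2, and at 76.71 and 38.15 RPKM in Vernicia, a difference of -0.99. AT1G13700, the highest in Vernicia by that sum but below AT5G24400 in library 7, had 58.30 and 75.63 RPKM there and 19.32 and 15.12 RPKM in Jatropha. As deposited, the locus that was higher in library 8 was thus a different one in each species. The median of the list was 0.43 in Jatropha and -0.31 in Vernicia, or 1.29 and 0.17 relative to all loci with 1 RPKM in both libraries. The list of the non-oxidative branch had 8 of 10 loci covered in each species. In Jatropha 1 of 8 was lower by 2-fold and none higher, with a median difference of -0.82, or 0.04 in relative terms, so close to the median of those loci. After median-ratio scaling that median was -0.04, and with equal totals without the top 100 contigs it was 0.05. In Vernicia none of the 7 compared was called, with a median of -0.38, or 0.10 in relative terms. Its highest loci by the sum over both libraries were AT3G04790 in Jatropha, with 50.69 and 92.10 RPKM, and AT2G45290 in Vernicia, with 217.62 and 121.25 RPKM. AT5G13420 was above each of these in one library, with 69.95 and 46.01 RPKM in Jatropha and 192.97 and 129.52 RPKM in Vernicia.

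The list of other NADPH sources, which holds malic enzymes and isocitrate dehydrogenases that use NADP and the non-phosphorylating glyceraldehyde phosphate dehydrogenase, had 7 of 8 loci covered in each species. In Jatropha 1 passed 2-fold upward and 1 downward, with a median difference of 0.05, or 0.92 in relative terms. In Vernicia 3 were lower and none higher, with a median of -0.99, or -0.51 in relative terms. Its highest locus in both species by the sum over both libraries, AT1G65930, had 75.33 and 78.25 RPKM in Jatropha and 246.79 and 98.53 RPKM in Vernicia. AT1G79750 was above it in Jatropha library 8, with 51.88 and 88.05 RPKM. The list summed to 185.7 and 227.5 RPKM in Jatropha and to 452.1 and 222.7 RPKM in Vernicia. The Jatropha sums of these 7 loci were of the same order as those of the 2 loci of 6PGDH covered in the same libraries. In Vernicia the sums of the list were above those of 6PGDH, at 169.9 and 94.8 RPKM. The list of plastid sugar phosphate transport had all 3 loci covered. In Jatropha 1 was higher and 2 were lower, with a median of -1.35, or -0.49 in relative terms. After median-ratio scaling 1 was lower in place of 2 and the median was -0.57, and with equal totals without the top 100 contigs it was -0.48. In Vernicia none was called, with a median of -0.33, or 0.15 in relative terms. Its highest locus in all 4 libraries, AT5G54800, had 34.45 and 12.88 RPKM in Jatropha and 58.95 and 46.62 RPKM in Vernicia. No locus of the members or lists passed 2-fold in opposite directions in the 2 species as deposited.

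**Figure D4:**
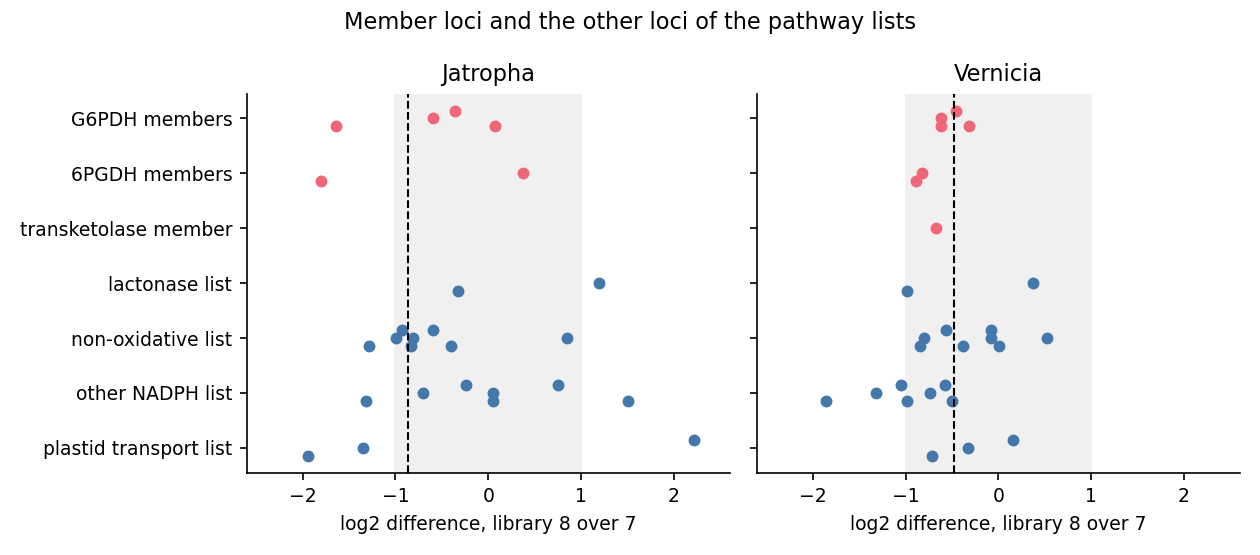
Log2 differences, library 8 over 7, of each member locus (red) and each locus of the 4 pathway lists (blue) in Jatropha and Vernicia, spread slightly in height for visibility. The grey band marks differences under 2-fold and the dashed line the median of loci with at least 1 RPKM in both libraries, -0.86 in Jatropha and -0.48 in Vernicia. The 20 list loci reach from -1.94 to 2.22 in Jatropha and from -1.86 to 0.52 in Vernicia.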

How the data were processed

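For either species the authors deposited a table of RPKM values of assembled contigs, rounded to 2 decimals, with an Arabidopsis locus code for some contigs. The deposited tables are named as RPKM, which gives the unit. The submitters' processing notes name Bowtie and edgeR, with no version or role. The sources used here do not name the assembler, the search behind the codes or any filter. Columns were tied to species by the labels and to no stage.

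Contigs were joined to the 10 codes by exact match and summed per locus. Differences used a pseudocount of 1 RPKM, a filter of 1 RPKM in either library and a 2-fold limit. No test was run. The members and lists were chosen with earlier results of these data known, and the list codes were written from general knowledge of the Arabidopsis annotation, which the deposited tables do not hold. Named from each list is its highest locus by species, and any locus 2-fold apart in opposite directions. Other choices were pseudocounts of 0.1 and 5 RPKM, filters of 0 and 10 RPKM, a 4-fold limit, 4 scalings and the highest contig per locus. Further loci of the lists and markers were named after their values were seen. The assignment of components with 2 codes, and the ratio of 6PGDH to G6PDH by highest contig, were added after seeing the data. Simulated data were used to check only median-ratio scaling and the contig calls after it, for 4-fold changes at 10 RPKM or more. Locus sums, shares, ratios and low loci were not checked in that way. Python 3.11.15, pandas 2.3.3, NumPy 2.4.6 and matplotlib 3.10.9 were used.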

Additional observations from a re-analysis of the deposited data

Results flagged for a closer look

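As deposited, the difference between libraries 8 and 7 had opposite signs in the 2 species for 10 of the member and pathway list loci with a contig in both. The share of all loci of both tables with opposite signs was not computed, so this count cannot be read as a trait of these loci. None of these differences between species was tested, since no stage was replicated. The comparison also assumes that equal library numbers mean equal stages across species, and no label says so. 6PGDH 3 (AT5G41670) was at 0.37 in Jatropha and -0.82 in Vernicia, 1.19 log2 units apart, and stayed opposite after median-ratio scaling, at 1.20 and -0.42. G6PDH 6 (AT5G40760) was at 0.07 and -0.62, 0.69 apart, and at 0.86 and -0.24 after that scaling. From the lactonase list AT5G24400 was 2.18 apart, with 2.02 and -0.60 after scaling, and AT1G13700 differed by -0.70, from -0.33 in Jatropha and 0.37 in Vernicia, with both above 0 after scaling, at 0.46 and 0.77. AT1G65930 of the other NADPH sources was at 0.05 and -1.32, 1.37 apart, and stayed opposite at 0.88 and -0.92. Of the same list, AT2G24270 was at 1.51 and -0.50, 2.01 apart, AT1G79750 at 0.75 and -0.58, 1.33 apart, and AT1G54340 at 0.05 and -1.05, 1.1 apart, and these 3 stayed opposite after scaling. AT2G01290 of the non-oxidative branch differed by -1.45, from -0.93 in Jatropha and 0.52 in Vernicia, and stayed opposite at -0.13 and 0.91. AT3G04790 of the non-oxidative branch was at 0.85 and -0.38, 1.23 apart, and was above 0 in both after scaling, at 1.67 and 0.01. Further loci had equal signs as deposited but opposite signs after median-ratio scaling, and are not in the count of 10. Among them were G6PDH 2 (AT5G13110), at 0.43 in Jatropha and -0.24 in Vernicia, and AT5G14590 of the other NADPH sources, at 0.57 and -0.62.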

How the results depend on the processing

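In Jatropha, where 2 member loci were 2-fold lower and 0 higher, 1 was higher with median-ratio scaling, trimmed mean scaling and equal totals without the top 100 contigs. There, 1 was lower with a pseudocount of 5 RPKM, equal totals without the top 100 contigs or a filter of 10 RPKM, where fewer loci enter, and 0 at 4-fold. In Vernicia 1 was lower with equal totals. Of the list loci in Jatropha (3 higher, 4 lower), 5 were higher under all 4 scalings. Lower were 2 with equal totals or a filter of 10 RPKM, and 1 with the other scalings or a pseudocount of 5 RPKM. Of those in Vernicia (3 lower), 5 were lower with a pseudocount of 0.1 RPKM or equal totals, and 1 with 5 RPKM, median-ratio or trimmed mean scaling. Summed Jatropha G6PDH, at -0.39, was at 0.42 with median-ratio and trimmed mean scaling, 0.03 with equal totals and 0.51 without the top 100, and 6PGDH, at -0.15, was at 0.68, 0.67, 0.29 and 0.77. The highest contig in place of the sum gave 6PGDH 3 shares of 69.8% and 94.1% in Jatropha and 80.9% and 83.2% in Vernicia, where it moved the ratio of 6PGDH to G6PDH from 1.89 and 1.54 to 1.08 and 0.923. Giving comp25402 to 6PGDH 2 gave 46.1% and 49.8%, and to 6PGDH 3 100%. Apart from what the settings do by construction, the cause was not tested. No called member reversed under these settings. No paired analysis was possible because stages were not replicated and no test was run, and no library could be left out. Unknown read numbers limit low loci most.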

Other observations

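Among the pathway lists, the loci with the highest log2 differences in Jatropha were low ones, chosen here after their values were seen. AT1G61800 of the plastid transport list was at 0.51 RPKM in library 7 against 6.05 in library 8, 2.22 apart in log2, and AT2G24270 of the other NADPH sources had 4.90 and 15.80 RPKM over 4 contigs, 1.51 apart. In Vernicia these loci were at 2.94 and 3.39 RPKM and at 44.08 and 30.80 RPKM.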
